A study of Homo sapiens with 6 samples.

Results

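The miR-26 family consists of 5 mature microRNA arms that are cut from 3 hairpins, and it was followed in K562 cells with and without RUNX1 over-expression. The 5 entries, hsa-miR-26a-5p, hsa-miR-26b-5p, hsa-miR-26a-1-3p, hsa-miR-26a-2-3p and hsa-miR-26b-3p (written without the prefix from here on), were taken by name from the 28846 small RNA entries that each count table lists, 2596 of which are microRNAs. K562 is an established human erythroleukemia cell line that can be driven towards erythroid or megakaryocytic features. The control group was K562 transduced with the empty lentiviral vector SIEW, which expresses GFP alone, and the RUNX1 group was K562 transduced with the same vector carrying human RUNX1 next to GFP. Each group had 3 biological replicates, grown in the same medium and harvested after 10 days in culture, and the comparison asks which small RNAs respond to RUNX1, a transcription factor of the megakaryocytic lineage.

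MicroRNAs are cut from a hairpin by Drosha and Dicer, and either side of the hairpin, the 5p or the 3p arm, can be loaded into an Argonaute protein. The loaded arm finds its target mRNAs mainly through its seed, bases 2 to 8. The 5p arms of miR-26 are the usual guide strands, known for restraining proliferation and for repressing the histone methyltransferase EZH2, and the MYC oncoprotein is known to lower them. The hosts of all miR-26 hairpins encode small phosphatases (CTDSPL, CTDSP2 and CTDSP1) that act on the tail of RNA polymerase II and on the retinoblastoma protein.

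The arms that the results turn on are shown with the seed in capitals, as given in RefSeq on GRCh38.p14. All 5 members were found in that table. The first 4 sequences are the arms that carry the seed UCAAGUA, and the last 3 are the miR-26 3p arms.
miR-26a-5p: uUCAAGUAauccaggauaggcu
miR-26b-5p: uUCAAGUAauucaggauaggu
miR-1297: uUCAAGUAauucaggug
miR-4465: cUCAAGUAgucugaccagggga
miR-26a-1-3p: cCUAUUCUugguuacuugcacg
miR-26a-2-3p: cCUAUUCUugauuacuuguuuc
miR-26b-3p: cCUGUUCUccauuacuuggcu
Over the 21 positions that both have, counted from the 5′ end, miR-26a-5p and miR-26b-5p were identical at 19 and differed by C11U and C21U, so both have the same seed. The 3p arms differed more. The arms miR-26a-1-3p and miR-26a-2-3p shared the seed CUAUUCU and differed at 5 of 22 positions (G11A, C19U, A20U, C21U and G22C). The seed of miR-26b-3p, CUGUUCU, was carried by no other mature arm in the table.

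The hairpins are shown with the 5p and the 3p arm in capitals, since they tell which arms can be traced to 1 gene.
MIR26A1: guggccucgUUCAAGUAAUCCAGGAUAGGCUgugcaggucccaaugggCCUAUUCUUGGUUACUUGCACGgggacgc
MIR26A2: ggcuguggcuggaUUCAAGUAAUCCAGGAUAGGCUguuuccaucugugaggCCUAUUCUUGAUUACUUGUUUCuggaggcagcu
MIR26B: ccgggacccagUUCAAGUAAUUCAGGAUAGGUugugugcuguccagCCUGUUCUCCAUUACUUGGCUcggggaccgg
On GRCh38, MIR26A1 lies at chr3:37969404-37969480 on the plus strand, MIR26A2 at chr12:57824609-57824692 on the minus strand and MIR26B at chr2:218402646-218402722 on the plus strand. In GENCODE release 29 the first is in intron 5 of CTDSPL, the second in intron 5 of CTDSP2 and the third in intron 4 of CTDSP1, counted in a coding transcript of each gene that spans the hairpin. Each hairpin is on the strand of its host, and it overlapped no exon in any of the 3, 5 and 4 coding transcripts that span it. The arm miR-26a-5p is thus encoded identically by MIR26A1 and MIR26A2, whereas each of the other 4 arms belongs to 1 gene. Host mRNAs were not measured in these libraries.

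Total counts ranged from 1618248 to 6193319 in control and from 7918551 to 15245007 in RUNX1 samples, and microRNA entries took from 81.4% to 82.1% of them in control and from 89.5% to 91.9% in RUNX1 samples. RUNX1 replicate 3 stood apart from the other RUNX1 samples, since the chi-square of its counts divided by the degrees of freedom was 451 and 314 against replicates 1 and 2, compared with 56.3 between these. Among the control samples, which had fewer counts, this quantity was 9.62 to 21.9. It grows with depth, so it does not compare the spread of the groups. The erythroid markers miR-451a, miR-144-3p, miR-144-5p and miR-486-5p together summed to 4429 to 5064 CPM in control samples, against 2333 to 3697 CPM with RUNX1, where 3 of the 4 were lower and 1 was higher. CPM is the count relative to a library size in units of 1e+06 counts, scaled by edgeR's TMM factors. Markers of other cell types also moved. The mesenchymal and muscle list summed to 71.0 to 75.3 CPM in control samples, against 1958 to 2162 CPM with RUNX1. There, 3 of 3 tested arms among 6 listed were higher and miR-199a-5p was at 0 throughout. Most of the sum with RUNX1 was miR-143-3p, with a mean of 1986 CPM. The epithelial list summed to 54.5 to 63.3 CPM against 165 to 179 CPM, where 3 of 4 tested arms among 6 listed were higher. The lymphoid and myeloid list summed to 12345 to 13978 CPM against 32545 to 46313 CPM, where 3 of 3 tested arms among 4 listed were higher, and the hepatocyte marker miR-122-5p stayed between 0.124 and 1.13 CPM in all samples. With library size as the only scaling the counts of higher arms were 0 of 4, 2 of 3, 1 of 4 and 1 of 3 in these lists, in the same order, and 3 erythroid and 1 epithelial arm were lower. By the thresholds given below, 28% of all 947 tested small RNAs were higher and 29.6% lower with RUNX1 after TMM scaling. With library size only, 120 were higher and 521 lower. What these marker lists contribute to the miR-26 changes was not tested.

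Upon RUNX1 over-expression the 5p arms of miR-26 rose, the 3p arms of miR-26a fell and miR-26b-3p did not pass the thresholds. The guide arm miR-26b-5p was 2.95 times as high in RUNX1 as in control samples, and miR-26a-5p 2.52 times. The rise of miR-26a-5p rests on 34 counts in control and 125 in RUNX1 samples, and with library size as the only scaling it was not called. In the other direction, miR-26a-1-3p was 3.46 times and miR-26a-2-3p 2.65 times as high in control as in RUNX1 samples. Calls required a change of 0.5 or more on the log2 scale besides a P-value below 0.05, and 4 of the 5 arms met both, 2 in each direction. Of all 947 small RNAs tested, 57.6% were called, 28% higher and 29.6% lower in RUNX1 samples, and of the 598 microRNAs 56%, 33.4% higher and 22.6% lower. An altered arm was therefore common in these data, and the 4 of 5 are read against that share. Without RUNX1 replicate 3 the changes on the log2 scale were 1.71 for miR-26b-5p, 1.48 for miR-26a-5p, -2.12 for miR-26a-1-3p, -1.36 for miR-26a-2-3p and 0.32 for miR-26b-3p, and the calls were the same. In bulk RNA, fewer cells that make a microRNA and less of it per cell cannot be told apart.

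**Figure D1:**
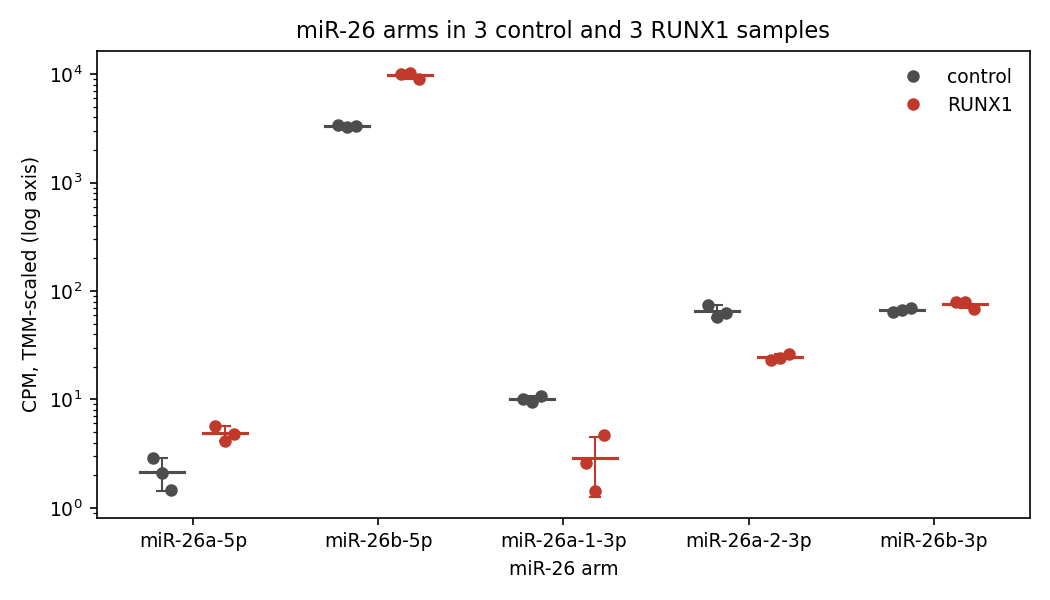
CPM after TMM scaling on a log axis for the 5 miR-26 arms, with 1 point per sample, 3 control (grey) and 3 RUNX1 (red), a line at the mean and bars of 1 SD. The RUNX1 points of miR-26b-5p lie between 8956 and 10242 CPM against 3232 to 3372 CPM in control, those of both miR-26a 3p arms lie below control, and those of miR-26b-3p overlap with control.

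The arm miR-26b-5p was by far the most counted member, and it is the guide strand of MIR26B. In control replicates 1, 2 and 3 it was counted 7051, 26042 and 25287 times. RUNX1 replicates 1, 2 and 3 gave 116959, 64017 and 61364 counts. After TMM scaling the control samples had 3372, 3232 and 3330 CPM, whereas the RUNX1 samples had 10146, 10242 and 8956 CPM. The control samples were close to each other, and the lowest RUNX1 sample was far above the highest control sample. Such separation of the groups was seen in 64.8% of all tested small RNAs and in 61.7% of the microRNAs. The mean of 9781 ± 716 CPM with RUNX1 stood against 3311 ± 71.9 CPM in the control (SD, n = 3 each). On the log2 scale the change was 1.56 ± 0.116 (SE), and the quasi-likelihood test of edgeR gave an adjusted p of 6.04e-06 (Benjamini-Hochberg, over all tested small RNAs). By counts, miR-26b-5p ranked 29 among the microRNAs in every control sample. In RUNX1 samples it ranked 20, 20 and 21.

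The entry miR-26a-5p, which shares the seed of miR-26b-5p and differs from it outside the seed, held few counts. The control samples had 6, 17 and 11 counts, and the RUNX1 samples 66, 26 and 33. These corresponded to 2.87, 2.11 and 1.45 CPM without and 5.73, 4.16 and 4.82 CPM with RUNX1. The groups did not overlap, although single counts weigh heavily here. On the log2 scale the change was 1.33 ± 0.299 (SE), with an adjusted p of 0.00399 in edgeR's quasi-likelihood test (Benjamini-Hochberg). With library size as the only scaling it was 0.63 and not called (edgeR, adjusted p = 0.108). Added to 1 entry before the fit, both 5p arms changed by 1.56 ± 0.115 (SE) on the log2 scale, which is in effect that of miR-26b-5p, since miR-26a-5p made up 0.052% of all family counts.

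The arm miR-26a-5p is encoded by 2 genes, and its counts were low for a guide strand. In control samples it had 0.0337, 0.0313 and 0.0196 counts for each count of the summed miR-26a 3p arms. In RUNX1 samples there were 0.223, 0.163 and 0.156. The usual guide strand was thus counted less often than its partners in all samples. For MIR26B, which is a single gene, the 5p arm was counted from 47.9 to 130 times as often as the 3p arm. For 14 mature arms that RefSeq places in several genes, all opposite arms given there belong to 1 gene each and have an entry, and both sides together held at least 100 counts. Of these, 9 were counted less often than their opposite arms, miR-26a-5p among them, and 5 more often. When arms were included for which only some of the opposite arms could be used, as for miR-103a-3p and let-7a-5p, 11 of 20 were counted less often and 9 more often. The 6 samples together held 305 counts of miR-16-5p against 10587 of its opposite arms, 6 of miR-181a-5p against 5569 and 20 of miR-24-3p against 2459. There were 207 counts of let-7a-5p, an arm of 3 genes, 1564 of miR-103a-3p and 3 of miR-125b-5p. The 5 arms of the first set that were counted more often than their opposite arms were named after their values were seen. They were miR-92a-3p with 982584 against 18276 counts, miR-128-3p with 4495 against 2513, miR-19b-3p with 2539 against 1508, let-7f-5p with 2058 against 5 and miR-194-5p with 1938 against 171. Counts below the opposite arms were common but not general among arms of several genes. Of 158 such entries matched to RefSeq, 27.8% had any count, compared with 62.9% of 2104 entries of 1 gene. How reads that match several genes were counted is not given in the sources used here, so the level of miR-26a-5p cannot be compared with that of miR-26b-5p, and its change rests on 159 counts in all. The part of read assignment in these values was not tested.

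The seed UCAAGUA is shared by 2 further arms in the table, and neither was called. The arm miR-1297, which resembles a shortened miR-26b-5p, had no count in any sample. A count of 0 allows up to 3 counts, which is 1.43 CPM in the smallest library and 0.26 CPM in the largest, for counting error only. The arm miR-4465 was counted 5, 19 and 22 times in control samples, and 39, 12 and 13 times with RUNX1. Its levels of 2.39, 2.36 and 2.9 CPM without and 3.38, 1.92 and 1.9 CPM with RUNX1 overlapped (adjusted p = 0.993, edgeR with Benjamini-Hochberg adjustment). Almost all counts with this seed were hence those of miR-26b-5p. Whether this holds for the levels in the cells cannot be told, since the counting of reads from several genes, as for miR-26a-5p, is not given.

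The 3p arms of miR-26a, the usual passenger strands of MIR26A1 and MIR26A2, are each specific to 1 gene. The level of miR-26a-2-3p was 75.1, 58.0 and 63.3 CPM in control samples, whereas the RUNX1 samples had 23.1, 24.2 and 26.3 CPM. All RUNX1 samples were below all control samples, and the mean went from 65.5 ± 8.76 CPM to 24.5 ± 1.63 CPM (SD, n = 3 each). This was a change of -1.41 ± 0.15 (SE) on the log2 scale, with an adjusted p of 5.24e-05 in edgeR (Benjamini-Hochberg). The arm miR-26a-1-3p was counted 21, 77 and 81 times in control samples, and 30, 9 and 32 times with RUNX1. The CPM values were 10.0, 9.56 and 10.7 without and 2.6, 1.44 and 4.67 with RUNX1, so that the groups did not overlap but the RUNX1 samples were spread widely. It changed by -1.79 ± 0.343 (SE) on the log2 scale (edgeR, Benjamini-Hochberg adjusted p = 0.00168). Within a sample, miR-26a-2-3p was counted 7.48, 6.06 and 5.94 times as often as miR-26a-1-3p in control, and 8.87, 16.8 and 5.63 times in RUNX1 samples. The log2 ratio differed by 0.55 between the groups, less than the SD of 0.79 among the RUNX1 samples (two-sided exact permutation test, p = 0.4, where 3 against 3 samples cannot go below 0.1). It was 0.13 without RUNX1 replicate 2. Without RUNX1 replicate 3, the library that stood apart, it was 0.92 and the groups did not overlap (two-sided exact permutation test, p = 0.1, which 2 against 3 samples cannot go below). Whether the genes of miR-26a differed in response thus depended on single libraries.

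The passenger strand of MIR26B, miR-26b-3p, was counted 135, 542 and 528 times in control samples, and 917, 494 and 471 times with RUNX1. Its levels were 64.6, 67.3 and 69.5 CPM without and 79.5, 79.0 and 68.7 CPM with RUNX1, and RUNX1 replicate 3 lay within the control range. Its change of 0.17 on the log2 scale, with a 95% interval from -0.12 to 0.46, was below the fold threshold, and edgeR gave an adjusted p of 0.277 (Benjamini-Hochberg). The direction of this arm depended on the scaling. It was -0.53 with library size only, which passed both thresholds (edgeR, adjusted p = 0.00397), and -0.021 when the scaling was taken from microRNA entries.

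**Figure D2:**
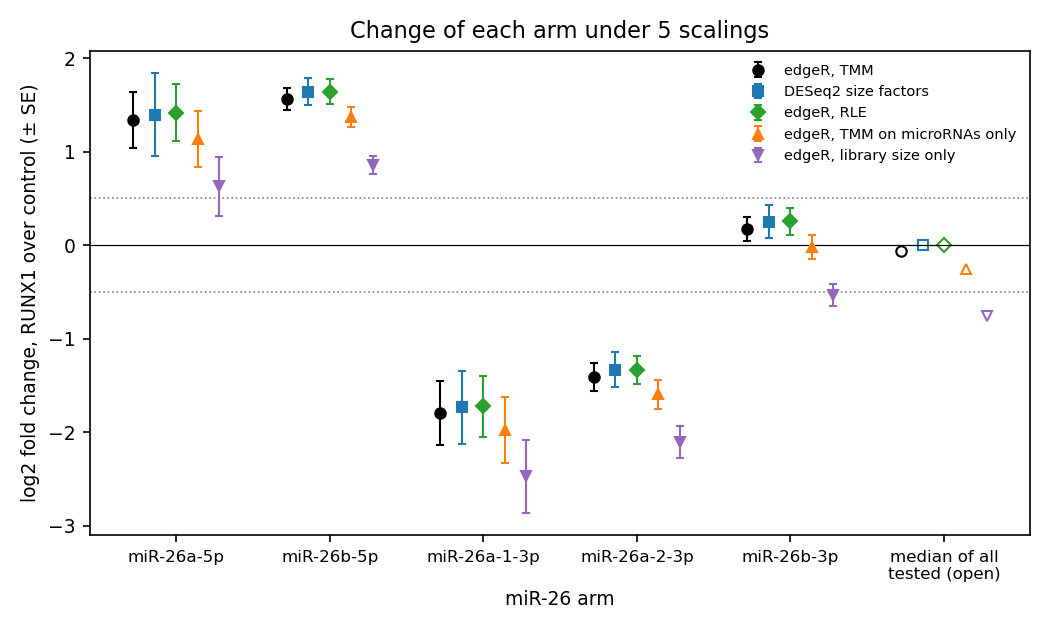
Log2 fold change of RUNX1 over control with its standard error for each miR-26 arm under 5 scalings, with the median of all tested small RNAs as open symbols and dotted lines at the fold threshold of 0.5. The 5p arms stay above 0 and the miR-26a 3p arms below 0 under all 5 scalings, whereas miR-26b-3p runs from 0.25 to -0.53, and library size only lowers all arms along with the median.

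The scaling moved the whole data set and the miR-26 arms with it. With library size only, the median log2 fold change of all tested small RNAs was -0.76, compared with -0.06 after TMM scaling, and the calls changed from 265 higher and 280 lower to 120 higher and 521 lower. Scaling on microRNA entries gave 213 higher and 345 lower. With library size only, miR-26b-5p changed by 0.86, miR-26a-1-3p by -2.47 and miR-26a-2-3p by -2.11 on the log2 scale, all with the same call. Relative to the median of all tested small RNAs, miR-26b-5p stood at 1.63 with TMM and 1.62 with library size only, miR-26a-2-3p at -1.34 with both and miR-26b-3p at 0.24 and 0.23. A change of scaling shifts all small RNAs by nearly the same amount, so these positions are nearly fixed in advance and test nothing.

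Ratios between arms of the same sample need no scaling, and they separated the groups for MIR26B. In control samples miR-26b-5p was counted 52.2, 48.0 and 47.9 times as often as miR-26b-3p, and in RUNX1 samples 127.5, 129.6 and 130.3 times. The log2 ratio averaged 7.01 ± 0.0159 with and 5.62 ± 0.0709 without RUNX1 (SD, n = 3 each), a difference of 1.39 that is many times the spread between replicates (p = 0.1 by a two-sided exact permutation test, which cannot go lower here). RUNX1 replicate 3, which stood apart in the whole data set, was close to the other RUNX1 samples in this ratio. The level of the ratio of miR-26b-5p to miR-26a-5p is not read, since the counting of reads from several genes is not given. This ratio overlapped between the groups, with a difference of 0.32 on the log2 scale (two-sided exact permutation test, p = 0.4). This difference was 0.099 without control replicate 1, 0.18 without RUNX1 replicate 2 and 0.58 without control replicate 3, and in the last case the groups did not overlap (two-sided exact permutation test, p = 0.1). For each count of the summed miR-26a 3p arms there were 0.758, 0.996 and 0.94 counts of miR-26b-3p in the control, whereas RUNX1 samples had 3.1, 3.09 and 2.22. The passenger strands of miR-26a and miR-26b were thus near equal in control samples, and that of miR-26b was ahead in all RUNX1 samples. This last ratio was chosen after the values were seen and is given without a test.

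**Figure D3:**
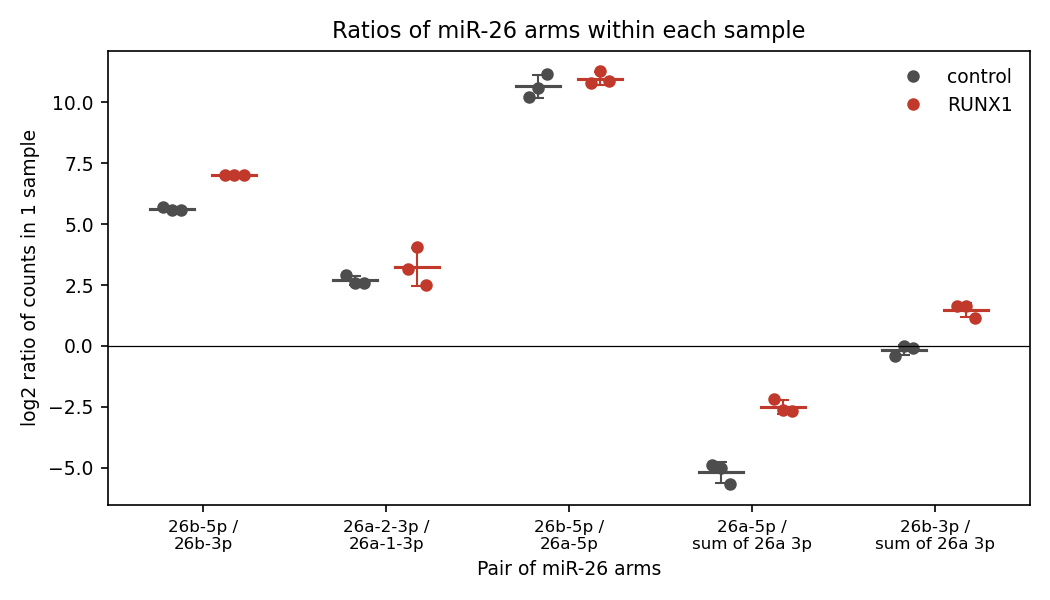
Log2 ratio of the counts of miR-26 arms within each sample, with 1 point per sample, a line at the mean and bars of 1 SD for 3 control (grey) and 3 RUNX1 (red) samples. The ratio of miR-26b-5p to miR-26b-3p moves from 5.62 to 7.01 with little spread, while the groups overlap for miR-26a-2-3p over miR-26a-1-3p and for miR-26b-5p over miR-26a-5p.

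A shift between the arms of a microRNA was not particular to miR-26b. For 144 microRNAs both arms were tested, and the log2 fold change of the arm with more counts minus that of the other had a median of 0.23, with quartiles at -0.22 and 0.91. The value of miR-26b was 1.39, and 21 of the other 143 microRNAs had a shift at least as large in this direction. With TMM scaling, both arms were called in opposite directions in 8 of the 144, and miR-26b was not one of these. All pairs come from the same 6 libraries, so they are not independent of each other.

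**Figure D4:**
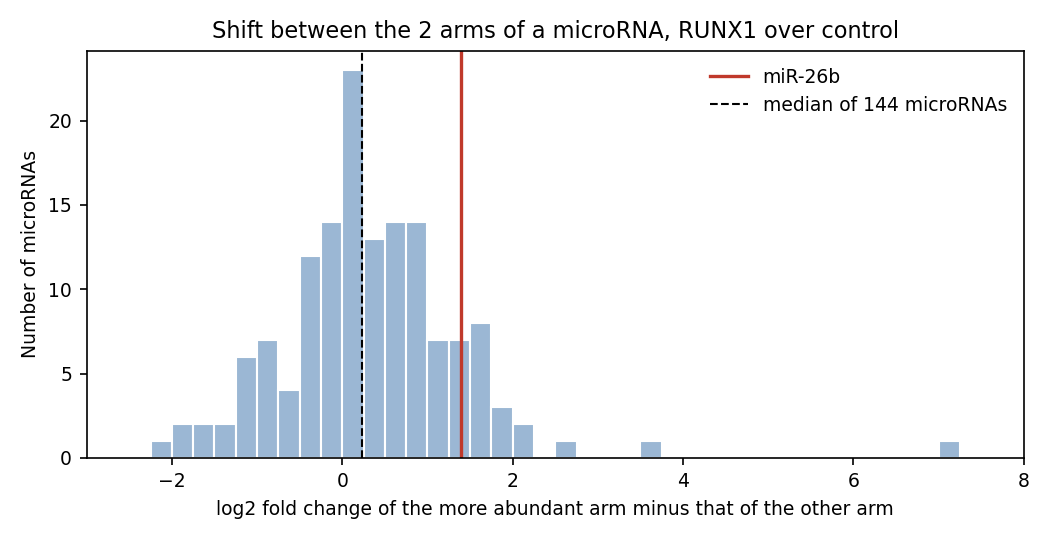
Histogram of the shift between the arms of 144 microRNAs, as the log2 fold change (RUNX1 over control) of the more abundant arm minus that of the other arm, with the number of microRNAs on the vertical axis. The shift of miR-26b (red line, 1.39) lies above the median of 0.23 (dashed line) and inside the range of the other microRNAs.

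In share of all microRNA counts, the 5 arms together rose from 0.555%, 0.542% and 0.519% in control to 0.844%, 0.833% and 0.876% in RUNX1 samples. The means were 0.539% ± 0.0181 and 0.851% ± 0.0222 (SD, n = 3 each), with groups that did not overlap (p = 0.1 by the same exact permutation test). The miR-26b-5p arm made up 95.7% to 95.9% of the family counts in control and 98.8% to 98.9% in RUNX1 samples. The rise in share was thus nearly that of miR-26b-5p alone and does not describe miR-26a. The 3p arms of miR-26a fell, and how reads of miR-26a-5p were counted is not given. With miR-10a-5p, the most counted microRNA over all samples, left out of the total, the difference between the groups was 0.636 percentage points in place of 0.312. The arm miR-10a-5p itself changed by 2.83 on the log2 scale with RUNX1 (edgeR, TMM).

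Like the miR-26 hairpins, many microRNAs lie in introns of protein-coding genes, and these changed in both directions. Of 63 tested arms from such introns in other genes, 27 were higher and 11 lower in RUNX1 samples and 25 were not called. Thus 60.3% were called, against 57.6% of all tested small RNAs and 56% of the microRNAs. Of all tested microRNAs, 33.4% were higher and 22.6% lower. The median log2 fold change of the list was 0.33, compared with 0.11 for all tested microRNAs and -0.06 for all tested small RNAs. This direction depended on the scaling. With library size only, 11 were higher and 30 lower with a median of -0.37, where the median of all tested small RNAs was -0.76. The named arms of this list are given after TMM scaling. The largest rises were those of miR-340-5p (host RNF130), from 454.4 ± 31.5 to 3807 ± 944 CPM (SD, n = 3 each), miR-190a-5p (host TLN2), from 5.75 ± 1.19 to 38.6 ± 14.5 CPM, and miR-340-3p, from 30.4 ± 3.47 to 150 ± 34.8 CPM. The largest falls were those of miR-335-3p (host MEST), from 491 ± 36.9 to 113 ± 30.2 CPM, miR-139-5p (host PDE2A), from 9.28 ± 1.92 to 3.28 ± 0.997 CPM, and miR-25-5p (host MCM7), from 395 ± 12.4 to 133 ± 106.8 CPM. The rise of miR-26b-5p was within this range. Over the 6 samples, the microRNAs whose profile relative to control was nearest to that of miR-26b-5p were miR-542-3p, miR-135b-5p and miR-184, with root mean square differences of 0.075, 0.087 and 0.103 on the log2 scale. Their levels were much lower, with 14.8, 138 and 5.75 CPM in RUNX1 samples. The 0.5 CPM added before taking logs therefore shrinks their changes more, mainly that of miR-184, which was 1.82 in the edgeR fit. With 6 samples in 2 groups, this measure mainly compares the size of the change.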

How the data were processed

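Libraries were prepared with the TruSeq Small RNA kit from 1000 ng of total RNA and read on a HiSeq2000. Per the submitters' processing notes, reads were demultiplexed with CASAVA 1.8.2 and the build was hg19. The study names the OASIS platform at its standard settings for finding altered small RNAs. The aligner, its settings and the counting of reads matching several loci are not given in the sources used here. The authors deposited whole-number counts per small RNA entry without normalization. The 5 summary rows per file (all 0) were left out. Groups and replicate numbers came from the sample titles. RUNX1 replicates 1 and 2 carry the same number in their library names, so the numbers behind the replicate block and the pairing check rest on the titles alone. The library names of the control and RUNX1 samples carry different letters, and whatever these letters mark cannot be told apart from the condition.

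The fits were run in R 4.3.3 with edgeR 4.0.16 (filterByExpr, minimum count 10, minimum total count 15, TMM, glmQLFit and glmQLFTest, condition as the only term) on the whole table, and DESeq2 1.42.0 as an alternative. Ratios, shares, permutation tests, arm comparisons and sequences were handled in Python 3.11.15 with pandas 2.3.3 and numpy 2.4.6. Calls followed the thresholds of the study (P-value below 0.05, log2 fold change of 0.5 or more in size). Adjusted P-values are those of Benjamini and Hochberg. Standard errors were obtained from the fold change and the F statistic. The interval of miR-26b-3p uses Student's t with the degrees of freedom of the edgeR test. The fits were checked on counts simulated with a common dispersion for all entries. No simulated library stood apart as RUNX1 replicate 3 did, so the check does not cover that spread. Ratios and shares were compared by exact permutation tests. Sequences came from RefSeq (GRCh38.p14, 2262 of 2576 named microRNA entries matched) and introns from GENCODE 29. Named microRNAs were the miR-26 arms, arms with the same seed, the 3 largest called rises and falls among intronic microRNAs, the 3 nearest profiles to miR-26b-5p (log2 of CPM + 0.5, minus the control mean) and 6 arms of several genes. Members, lists and tests were chosen with earlier results of these data known. After the values were seen, the minimum of 100 counts for arms of several genes, the pseudocount of 0.5 CPM, the wider set of these arms, the limit of the intronic list to arms of 1 gene, the comparison of arm pairs, the lists under other scalings and the ratios to the miR-26a 3p arms were added. Total counts were 1618248 to 15245007 per sample.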

Additional observations from a re-analysis of the deposited data

How the results depend on the processing

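Alternatives were DESeq2, RLE factors, library size only, scaling on microRNA entries, no filter, a filter of 10 counts per sample, calls on adjusted P-values, the replicate number as a block and each replicate left out. miR-26b-5p, the summed 5p arms, miR-26a-1-3p and miR-26a-2-3p kept direction and call in all alternatives that gave a value. With library size only, miR-26a-5p had a log2 fold change of 0.63 and was not called, and miR-26b-3p had -0.53. With scaling on microRNA entries miR-26b-3p had -0.021. The requirement of 10 counts in every sample gave no value for miR-26a-5p and miR-26a-1-3p. With 1 replicate left out, the log2 fold changes ranged from 1.54 to 1.71 for miR-26b-5p, 1.09 to 1.49 for miR-26a-5p, -2.12 to -1.46 for miR-26a-1-3p, -1.50 to -1.29 for miR-26a-2-3p and 0.16 to 0.32 for miR-26b-3p. The highest value of miR-26b-3p was that without RUNX1 replicate 3 (edgeR, adjusted p = 0.0146), still under the fold threshold. The count of altered small RNAs ranged from 521 to 612 with 1 replicate left out and from 386 to 761 over the other alternatives, against 545. Of the ratios, that of miR-26a-2-3p to miR-26a-1-3p moved most, from 0.13 without RUNX1 replicate 2 to 0.92 without RUNX1 replicate 3, and miR-26b-5p to miR-26b-3p ranged from 1.37 to 1.43.

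With the replicate number of the titles as a block, 546 small RNAs were altered, and the log2 fold changes were 1.56 for miR-26b-5p and the summed 5p arms, 1.24 for miR-26a-5p, -1.85 for miR-26a-1-3p, -1.41 for miR-26a-2-3p and 0.17 for miR-26b-3p, with no call changed. Deviations from the group means correlated at -0.0327, -0.0904 and 0.0178 for samples with the same number. With RUNX1 replicates 1 and 2 exchanged, the values were 0.0874, 0.0449 and 0.0178. With 3 samples per group and numbers from the titles alone, these values cannot tell whether the samples were paired. Precision is limited by depth mainly for miR-26a-5p and miR-26a-1-3p, with 159 and 250 counts in all.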
